A study of Caenorhabditis elegans with 4 samples.

Results

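The NHR-23 peaks of chromosome V, the longest chromosome of Caenorhabditis elegans, were the entries on that chromosome in the combined peak list of the series. The list held 972 such entries, of which 3 repeated a region, leaving 969 distinct peaks of 6142 on the 6 nuclear chromosomes (15.8%). A peak is a region listed by the authors' calling for the NHR-23::GFP immunoprecipitate, and a low peak number marks a strong peak. All positions are in WormBase build WS220.

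The 2 ChIP samples and the 2 Input samples came from L3 hermaphrodites of strain OP43 at 20 °C. These worms carry unc-119(ed3) and the bombarded transgene wgIs43, which holds unc-119 and nhr-23 fused to TY1, EGFP and FLAG tags. Chromatin crosslinked with 2% formaldehyde was precipitated with anti-GFP antibodies, and Input was set aside from the same lysates. Only the ChIP peak lists were analysed here, so no background of the same kind stands beside them, the labels do not say whether the replicates were separate cultures, and the read depth is unknown.

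NHR-23 is a nuclear hormone receptor, related to Drosophila DHR3 and the vertebrate ROR receptors, that is needed for the larval moults and acts in the epidermis that makes the cuticle. The autosomes of C. elegans have a gene-dense centre with little recombination, flanked by arms that recombine more and hold more repeats and fast-evolving gene families. Chromosome V is known for its large families of chemoreceptor genes. In the WBcel235 gene table it holds 4995 protein-coding genes, the most of any chromosome, among them 180 of 220 srh genes and 156 of 193 str genes (both chemoreceptor families) and 167 of 269 nhr genes (nuclear hormone receptors, the family to which NHR-23 belongs). These counts describe the chromosome only, because no gene was assigned to a peak.

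The peaks of V were few for its length and crowded into its centre. The chromosome spans 20.9 Mb and carried 46.3 peaks per Mb, 0.710 times the density of the other 5 nuclear chromosomes pooled (95% interval 0.663 to 0.761, exact binomial adjusted p = 2.84e-23). Against chromosome IV, the next in order, the ratio was 0.907 (0.827 to 0.994). Per 1000 protein-coding genes, V had 194 peaks, against 272 on IV, 299 on II, 337 on I, 397 on III and 450 on X. The shortfall was thus wider per gene than per Mb, with a ratio to the other chromosomes of 0.562 (0.524 to 0.602).

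When the span was divided into 3 parts of equal length, 6.97 Mb each, the centre of V held 475 peaks, the right arm 191 and the left arm 303. The densities were 68.1 peaks per Mb in the centre, 27.4 in the right arm and 43.5 in the left arm. The centre exceeded the arms 1.92 times (1.69 to 2.19, exact binomial adjusted p = 3.38e-23). The right arm had 0.630 times the density of the left (0.523 to 0.758, exact binomial adjusted p = 1.24e-06). These tests count each peak as independent although peaks lie in clusters. Their intervals and p-values thus cover counting error only, not the variation along an arm. These parts are equal divisions and not measured boundaries of recombination. With a central part spanning 50% of the chromosome, the densities were 65.9 in the centre, 20.1 in the right and 33.5 in the left outer part.

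The right arm of V was the sparsest of the 18 parts of the nuclear chromosomes, followed by the right arm of IV (36.9 peaks per Mb), the left arm of II (42.0) and the left arm of V. The right arm of V had 0.742 times the density of the right arm of IV (0.608 to 0.906), whereas the left arm of V could not be separated from the left arm of II (ratio 1.03, 0.865 to 1.24) or the right arm of IV (1.18, 0.986 to 1.41). The centre of V stood close to those of IV (ratio 1.06, 0.920 to 1.21) and X (0.970, 0.848 to 1.11). Set against the same parts of the other autosomes together, V had 0.838 times the density in the centre (0.755 to 0.928), 0.470 times in the right arm (0.401 to 0.548) and 0.829 times in the left arm (0.727 to 0.942). The right arm therefore showed the widest difference of the 3 parts.

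**Figure D1:**
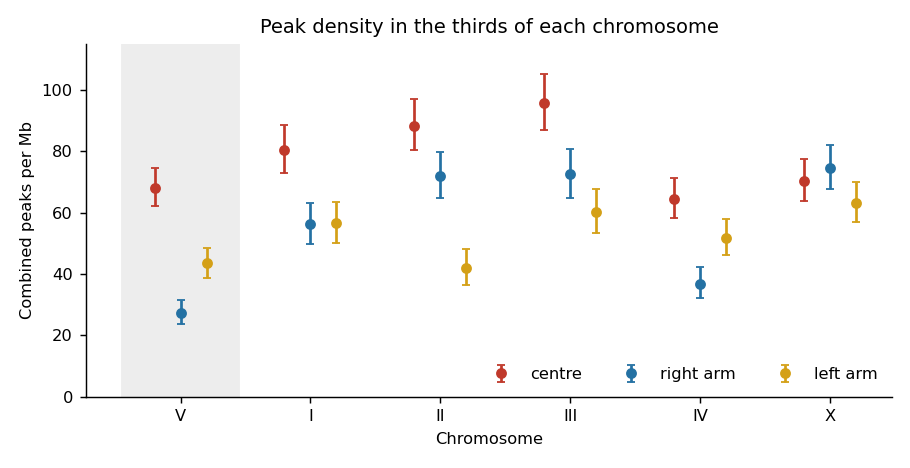
Combined peaks per Mb (y axis) in the centre, right arm and left arm of each chromosome (x axis), with exact Poisson 95% intervals as bars. The right arm of V, at 27.4 peaks per Mb, is the lowest point of the plot, and the centre of V, at 68.1, lies beside the centres of IV and X.

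The other autosomes also had denser centres, so the central excess itself was compared. Of the peaks on V, 49.0% lay in the centre, against 42.3% on the other autosomes (odds ratio 1.31, Fisher exact adjusted p = 0.000341). The ratio of centre to arms was 1.92 on V, against 1.43 on I, 1.55 on II, 1.44 on III, 1.45 on IV and 1.02 on X. When peaks with centres within 5 kb were counted as 1 site, the odds ratio was 1.17 and no longer passed (Fisher exact adjusted p = 0.198). The order of the arms differed between chromosomes: the right arm had fewer peaks than the left on V and IV (ratios 0.630 and 0.712), more on II (1.71), III (1.20) and X (1.18), and about as many on I (0.993, 0.839 to 1.17).

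Along 21 equal bins of 0.996 Mb, 7 in each part, the centre of V had 67.9 ± 14.7 peaks per bin, the right arm 27.3 ± 17.3 and the left arm 43.3 ± 21.3 (SD over bins, n = 7 each). The parts overlapped bin by bin. The lowest, median and highest bin held 43, 73 and 83 peaks in the centre, 8, 22 and 61 in the right arm, and 21, 39 and 86 in the left arm. The fullest bin of the whole chromosome, from 5974757 to 6970549, lay in the left arm against the border of the centre. The emptiest, with 8 peaks, ran from 16928476 to 17924268 in the right arm. Counts were higher again towards both ends, with 48 peaks in the first bin and 37 in the last.

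**Figure D2:**
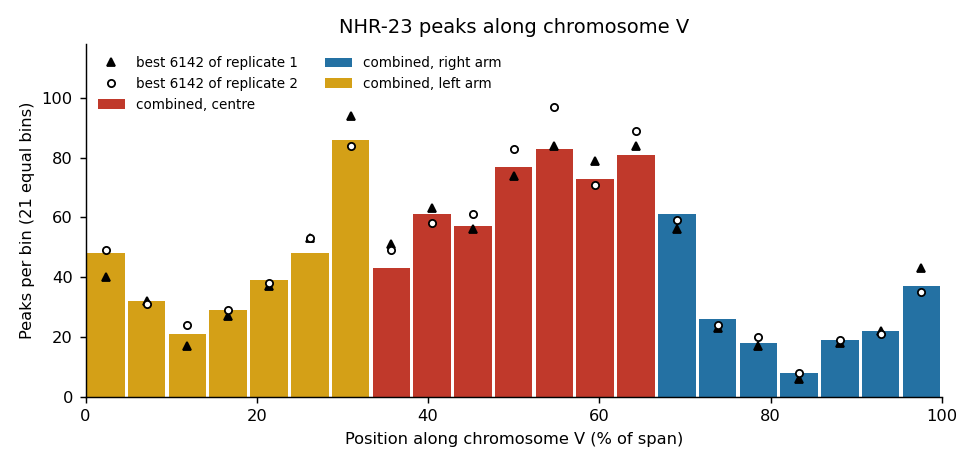
Peaks in each of 21 equal bins (y axis) along chromosome V (x axis, percent of the span); bars are combined peaks coloured by part, triangles and circles the best 6142 peaks of replicates 1 and 2. The bins fall to 8 peaks in the right arm and reach 86 beside the border of the left arm and the centre, with both replicates close to the bars.

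The best 6142 peaks of each replicate, as many as the combined list holds, gave the same layout. Their ratio of centre to arms on V was 2.02 in replicate 1 (1.78 to 2.30) and 2.06 in replicate 2 (1.81 to 2.33), and that of right to left arm was 0.617 and 0.604. In the full replicate lists, which run on to weak entries, the 2 replicates parted. These lists differ in length, with 30000 entries in replicate 1 and 25173 in replicate 2. Their counts, shares and median numbers are thus not compared at equal length. The ratio of centre to arms was 1.28 in replicate 1 (1.21 to 1.36) and 1.81 in replicate 2 (1.70 to 1.93). The full list of replicate 1 held 1322 peaks in the right arm of V, against 825 in that of replicate 2, whereas in the centre the lists held 1905 and 1832.

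The fate of these replicate entries was followed into the combined list. Of the replicate 1 peaks on V, 22.8% (1113 of 4873) overlapped a combined peak, where 23.6% did over all nuclear chromosomes. By part these shares were 28.5% in the centre (26.4 to 30.5), 16.1% in the right arm (14.2 to 18.2) and 21.7% in the left arm (19.8 to 23.8). On the other autosomes the shares were 27.1% in the centre (26.0 to 28.1), 21.6% in the right arm (20.6 to 22.6) and 18.9% in the left arm (17.9 to 19.9). In replicate 2, 28.2% (1088 of 3856) of the peaks on V overlapped a combined peak, where 27.3% did over all nuclear chromosomes. There the parts lay closer together, at 29.1% in the centre, 25.7% in the right arm and 28.6% in the left arm.

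Overlap between the replicates had the same shape. On V, 53.9% of replicate 1 peaks met a replicate 2 peak, beside 55.7% over all nuclear chromosomes. The shares on V were 66.1% in the centre, 40.5% in the right arm and 50.7% in the left arm. In the same parts of the other autosomes they were 63.4%, 53.0% and 48.1%. In the other direction 66.8% of replicate 2 peaks on V met a replicate 1 peak, beside 65.3% over all nuclear chromosomes, with 67.9% in the centre, 63.3% in the right arm and 67.6% in the left arm. The low share of the right arm was thus seen in the longer list of replicate 1 and much less in replicate 2. The median peak number of replicate 1 peaks on V was 12698 in the centre, 17954.5 in the right arm and 16067 in the left arm. On the other autosomes these medians were 12950.5, 16065 and 16775, so the centre held stronger entries there too. In replicate 2 the medians on V lay closer together, at 11989 in the centre, 13233 in the right arm and 12224 in the left arm.

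Long peak-free stretches took up much of V. Between neighbouring combined peaks the chromosome had 38 gaps of at least 100 kb, which together covered 6.93 Mb or 33.1% of its span. The other chromosomes had 72 such gaps covering 13.2% of theirs, and the highest share among them was 22.2%, on IV. By part the gaps covered 14.9% of the centre of V (8 gaps), 54.3% of the right arm (18 gaps) and 30.2% of the left arm (12 gaps). V held 4 of the 5 longest gaps of the nuclear genome, 7 of the 10 longest and 10 of the 20 longest.

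The longest gap of the genome lay in the right arm of V, from 16966996 to 17723128, a stretch of 756133 bp. The second, from 2281967 to 2600615 in the left arm, was 318649 bp long. The third, from 19644267 to 19946016 in the right arm, had 301750 bp. The longest gap off chromosome V, 282633 bp on II, was shorter than each of these. The remaining gaps among the 5 longest of V ran from 2909930 to 3193200 in the left arm (283271 bp) and from 15191189 to 15465017 in the right arm (273829 bp).

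The gaps were not empty in the replicate lists. A gap is by definition free of combined peaks, and the combined list took most of the strong replicate peaks. Of the V peaks among the best 6142, 79.9% in replicate 1 and 83.3% in replicate 2 overlapped a combined peak. Nearly all combined peaks overlapped both replicate lists. What gaps contain was thus bound to be weaker and less shared than the full lists, and the counts are given as a description. The longest gap contained 52 peaks of replicate 1 and 5 of replicate 2, and 1 of the 52 overlapped a replicate 2 peak. The lowest number among them was 8677 in replicate 1 and 13982 in replicate 2, so none was among the best 6142 of either list. Per Mb, replicate 1 had 68.8 peaks in this gap and 233 on V as a whole, and replicate 2 had 6.61 in the gap and 184 on V. The second gap held 9 peaks of replicate 1 and 0 of replicate 2. Over all 38 gaps there were 754 peaks of replicate 1 and 330 of replicate 2, of which 24 and 23 belonged to the best 6142. Of the 754, 152 (20.2%) overlapped a replicate 2 peak. In 25 of the 38 gaps at least 1 replicate had a peak among its best 6142, and in 13 neither had. The contents varied: a gap of the centre, from 8662517 to 8796858, held 24 peaks of replicate 1, of which 16 overlapped replicate 2, and another, from 8462371 to 8569869, held number 359 of replicate 1.

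**Figure D3:**
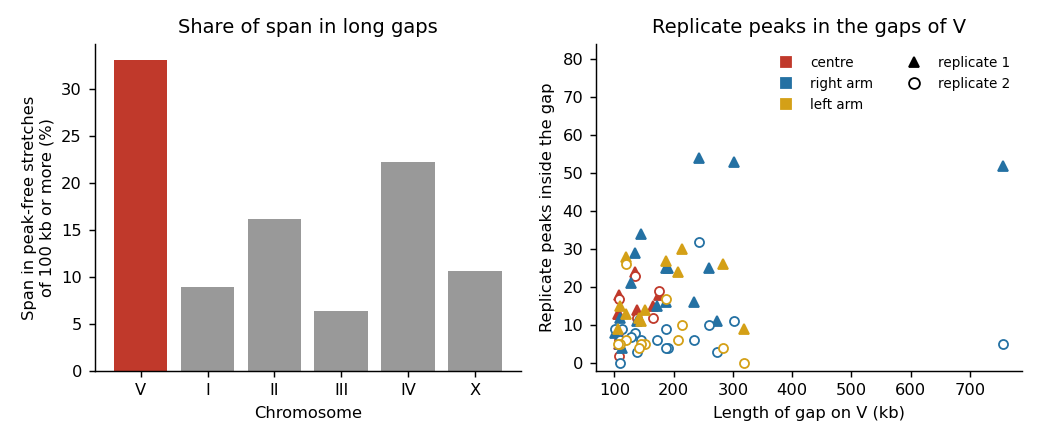
Left, percent of each chromosome's span (y axis) lying in peak-free stretches of at least 100 kb; right, for each such gap of V, its length in kb (x axis) and the number of replicate peaks inside it (y axis), triangles for replicate 1 and circles for replicate 2. V stands highest at 33.1%, and the longest gap, at the right edge, holds 52 peaks of replicate 1 and 5 of replicate 2.

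Between the gaps, peaks lay close together. The median distance from a peak centre to the nearest other one was 2477.5 bp on V and 2425.5 bp on the other chromosomes. On V it was 1867 bp in the centre, 3983 bp in the right arm and 2965 bp in the left arm. In the same parts of the other autosomes it was 2253.75, 2565.5 and 2867 bp. Over the whole of V, the median spacing was thus close to that elsewhere, although the density was lower and long gaps covered more of the span. By part, the median was lower in the centre and higher in the right arm than on the other autosomes. In the centre the quartiles were nearly equal, at 982.5 and 5183.5 bp on V and 1006.5 and 5193.5 bp on the other autosomes. In the right arm they were 1194 and 12881.5 bp on V, and 1152 and 7471 bp on the other autosomes. A neighbour within 1 kb was found for 219 peaks of V, or 22.6% (20.0 to 25.4), where the share over all nuclear chromosomes was 21.7%. The shares by part were 25.3% in the centre (21.4 to 29.4), 19.9% in the right arm (14.5 to 26.3) and 20.1% in the left arm (15.8 to 25.1), with overlapping intervals. In the same parts of the other autosomes they were 24.8%, 20.0% and 16.7%.

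**Figure D4:**
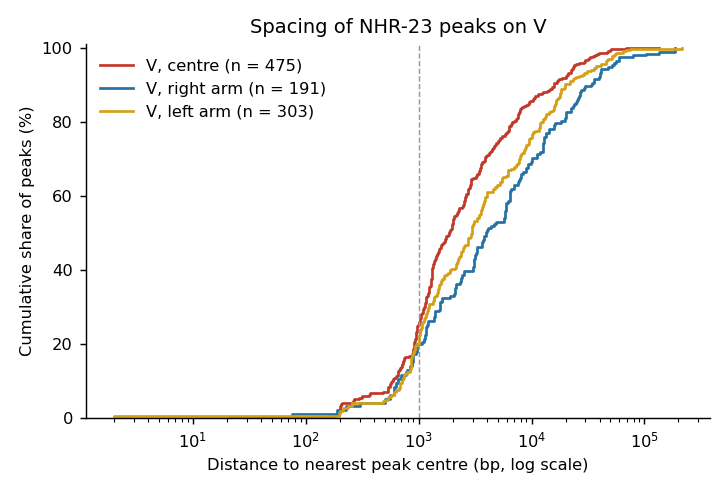
Cumulative percent of V peaks (y axis) by distance to the nearest other peak centre in bp (x axis, log scale), for the centre, right arm and left arm; the dashed line marks 1 kb. The curves are together below 1 kb and part above it, with medians of 1867, 3983 and 2965 bp.

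At the far end of the scale, 22 peaks of V (2.27%) had no other within 50 kb, where 1.07% of all nuclear peaks had none. Of these, 3 lay in the centre, 10 in the right arm and 9 in the left arm. All 22 were found in both replicate lists, where 98.5% of all nuclear peaks were. In the strongest 25% of the combined list, which by construction takes 25.0% of all nuclear peaks, stood 5 of the 22. Neither count sets these peaks apart. The most remote, from 2909550 to 2909929 in the left arm, had its nearest neighbour 215158 bp away; it was number 5780 in the combined list, 14873 in replicate 1 and 4298 in replicate 2. The strongest of them, from 15766250 to 15766488 in the right arm, stood 102130 bp from its neighbour with number 371 in the combined list, 320 in replicate 1 and 565 in replicate 2. Isolation was thus seen both at weak and at strong sites.

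Runs of at least 3 peaks with successive centres within 1 kb numbered 15 on V and took in 49 peaks, or 5.06%, beside 5.23% over all nuclear chromosomes. There were 5 runs in the centre, 3 in the right arm and 7 in the left arm. The largest was a run of 5 peaks over 3616 bp, from 5843499 to 5847114 in the left arm, whose strongest member had number 576. The longest run off V, on X, had 8 peaks. Overlapping peaks were counted separately in the runs, and in the windows that follow, and no counts after merging are given. The run from 20664807 to 20666222, for example, held peaks from 20664807 to 20665200 and from 20664807 to 20665351.

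Dense stretches of a wider kind were taken as 20 kb windows. V had 52 non-overlapping windows with at least 5 peaks, which held 346 peaks (35.7% of those on V); the share was lowest on IV (32.4%) and highest on II (43.5%). Of the 52 windows, 34 lay in the centre, 6 in the right arm and 12 in the left arm. Of the 11 windows with at least 8 peaks, 7 were in the centre and 4 in the left arm, and the right arm had 0.

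The fullest window, from 6220969 to 6240968 in the left arm, held 15 combined peaks with numbers from 159 to 5964, of which 5 were in the strongest 25%. Among the best 6142 peaks of a replicate, 15 of replicate 1 and 11 of replicate 2 fell in it. Some of the 15 combined peaks overlapped each other. Those from 6220780 to 6221159 and from 6220979 to 6221358 matched the same replicate peaks, number 1813 in replicate 1 and 3255 in replicate 2. Without replicate 1 the fullest window of V was instead one in the centre, from 10712002 to 10732001, with 14 peaks. In the combined list a window from 10712031 to 10732030 in the centre had 13 combined peaks, numbered from 291 to 5726, and 13 best peaks in each replicate. Strong and weak peaks thus stood side by side in these stretches.

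A second window of the centre, from 12534943 to 12554942, also had 13 combined peaks, 6 of them in the strongest 25%, with 11 and 13 best peaks in replicates 1 and 2. The next window, from 8652424 to 8672423, had 9 peaks, of which 1 was in the strongest 25%, and 6 and 10 best peaks. The fifth, from 5763991 to 5783990 in the left arm, was the first by position of 7 windows with 8 peaks, and had 4 best peaks in replicate 1 and 9 in replicate 2. All peaks in these 5 windows were found in both replicate lists, where 98.5% of all nuclear peaks were. The 4 windows of the left arm with at least 8 peaks lay between 5763991 and 6240968, in its part nearest the centre.

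The very top of the combined list held few sites of V. V had 0 of the first 10 peaks (0 to 30.8%), 4 of the first 50 (8.0%, 2.22 to 19.2) and 6 of the first 100 (6.0%, 2.23 to 12.6). Its 15.8% of all peaks lay inside the intervals for the first 10 and 50 and above that for the first 100. Further down it had 72 of the first 500 (14.4%, 11.4 to 17.8) and 149 of the first 1000 (14.9%, 12.7 to 17.3). In the strongest 25% of the list, which by construction takes 25.0% of all nuclear peaks, stood 225 of the 969 peaks of V (23.2%), against 25.3% of those on the other chromosomes. This difference did not pass (Fisher exact adjusted p = 0.198). In the strongest 10% of the list the shares were 8.77% and 10.2%, which did not pass either (Fisher exact adjusted p = 0.251).

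The strongest site of V, from 10897191 to 10897513 in the centre, had number 12 in the combined list, 17 in replicate 1 and 12 in replicate 2. Next was a site from 9546831 to 9547200, with number 15, and 18 and 17 in the replicates. A site from 13371308 to 13371755 had number 33, and 20 and 96 in the replicates. These 3 leading sites all lay in the centre. The fourth, from 10965533 to 10965805, also in the centre, had number 43, with 43 in replicate 1 and 53 in replicate 2. A site of the right arm followed, from 20778207 to 20778546, close to the end of the chromosome, with number 78, and 102 and 83 in the replicates. The sixth, from 11802438 to 11802823 in the centre, had number 98, and 201 and 59 in the replicates. Each of these 6 stood within the first 201 places of both replicate lists. The combined list was made from these replicates, so high places there were built in.

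The right arm, for all its low density, supplied the seventh and the eighth. A site from 19529179 to 19529515 had number 105, with 174 in replicate 1 and 93 in replicate 2. A site from 18967697 to 18967954 had number 110, with 72 and 268. The last of the 10 strongest were in the centre, from 9344092 to 9344426 (number 124, with 146 and 137) and from 9789866 to 9790143 (number 126, with 75 and 262). The site at number 126 was the most remote of the 10, with its nearest neighbour 31354 bp away.

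The left arm had no member among these 10. Its best site, from 6000309 to 6000671, had number 137, with 135 in replicate 1 and 155 in replicate 2. The next, from 6246446 to 6246847, had number 156, with 104 and 267. The third, from 6227385 to 6228031, had number 159, with 166 and 150, and lay inside the fullest combined window of V. All 3 were in the same 0.996 Mb bin that held the most peaks of the chromosome.

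Strength was then compared between the parts of V. In the strongest 25% of the combined list were 25.3% of the peaks of the centre (120), against 21.3% of those of the arms (105), a difference that did not pass (Fisher exact adjusted p = 0.198). With a central part spanning 50% of the chromosome, these shares were 25.7% and 17.1%, and the difference passed (Fisher exact adjusted p = 0.00599). In the best 6142 peaks of a single replicate the difference was smaller than the 4.01 percentage points of the combined list, at 1.77 without replicate 1 and 1.36 without replicate 2 (Fisher exact adjusted p = 0.544 and 0.647). The median combined number was 2981 in the centre (2771 to 3192), 3699 in the right arm (3176 to 4074) and 3157 in the left arm (2854 to 3487). The right arm had 20.4% of its peaks in the strongest of 4 equal classes and 29.8% in the weakest.

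In replicate 1 the median number of V peaks was 3433 (3179 to 3635), against 3045 on the other chromosomes (2960 to 3141). In replicate 2 the medians were 3135 (2884 to 3309) on V and 3075.5 (2993 to 3163) on the others. The peaks of V thus stood lower in the order of replicate 1, with intervals that did not overlap, and at about the same place in replicate 2. By part the replicate 1 medians were 3306.5 in the centre, 3881 in the right arm and 3201 in the left arm, and the replicate 2 medians were 2973, 3439 and 3126.

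Of the 969 peaks of V, 958 (98.9%, 97.98 to 99.4) overlapped a peak of both replicate lists, where 98.5% of all nuclear peaks did. On the other chromosomes the share was 98.4%, and the difference did not pass (Fisher exact adjusted p = 0.320). The combined list was made from these replicates, so high shares were built in. Replicate 1 alone matched 4 peaks and replicate 2 alone 7. The best of the 11 by combined number, from 12318228 to 12318394 in the centre (number 1278), was number 1669 in replicate 2 and had no counterpart in replicate 1. The next, from 10736841 to 10736965, was number 908 in replicate 2 and was 125 bp wide.

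Across the 958 peaks in both lists, replicate numbers correlated with a Spearman rho of 0.603 on V and 0.639 on the other chromosomes (5090 peaks); these peaks share their libraries and passed a comparison of ranks, so the values are descriptions. The median distance between the centres of combined and replicate peaks on V was 17 bp in replicate 1 and 12 bp in replicate 2.

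**Figure D5:**
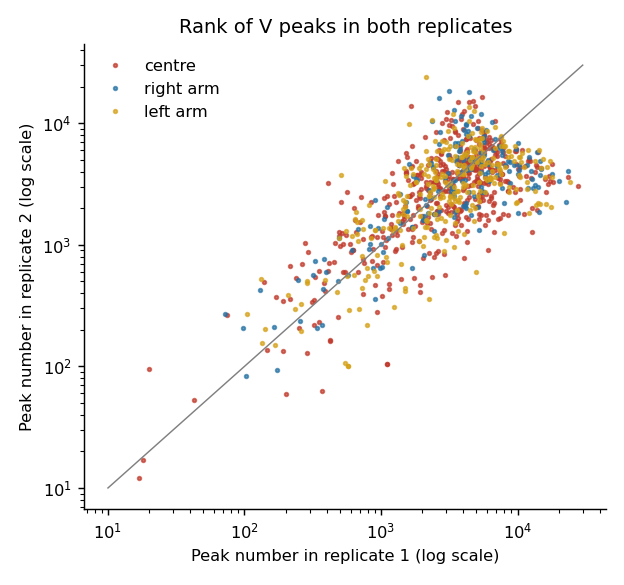
Peak number in replicate 1 (x axis, log scale) and replicate 2 (y axis, log scale) of the 958 combined peaks of V found in both, coloured by part; the line marks equal numbers. Points run along the line from number 17 and 12 at the lower left and spread out among weaker peaks.

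Some strong sites of V held very different places in the replicates. Within the strongest 25% of the combined list, a site from 4615868 to 4616062 in the left arm was number 510 in replicate 1 and 3769 in replicate 2. A site from 11314167 to 11314322 in the centre was number 411 and 3198, and a site from 13373744 to 13373931, also in the centre, was 564 and 2723. The opposite order was seen at a site from 6229381 to 6229619 in the left arm, number 4958 in replicate 1 and 601 in replicate 2. Sites from 12554215 to 12554473 (4072 and 772) and from 12537618 to 12537797 (2946 and 567), both in the centre, went the same way. These last 3 sites all lay within the fullest windows of V. Of the sites with the first order, that from 13373744 to 13373931 also lay in a full window. This window, from 13357493 to 13377492, had 8 peaks.

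Some strong replicate peaks on V were missing from the combined list. Among the first 1000 numbers of replicate 1 these were 2 of 142 peaks on V (1.41%), where 0.612% were missing over all nuclear chromosomes (6 of 981). They lay from 8500426 to 8500609 (number 359) and from 9243691 to 9243786 (number 818), neither with a counterpart in replicate 2. Among those of replicate 2 it was 1 of 139 (0.719%), where 0.305% were missing over all nuclear chromosomes (3 of 985). This peak, from 13715407 to 13715515 (number 821), overlapped a replicate 1 peak. All 3 lay in the centre and were 184, 96 and 109 bp wide.

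Width differed with strength, strong peaks being mostly narrower than weak ones, and set V little apart. The commonest width, 380 bp, was that of 2.67% of V peaks in the strongest of 4 equal classes of the list, 47.4% in the second, 85% in the third and 95.9% in the weakest. On the other chromosomes these shares were 1.60%, 46.5%, 90.6% and 96.5%. In the same order of classes, the median width was 231, 208, 380 and 380 bp on V. It was 237, 242, 380 and 380 bp on the other chromosomes. The widest peak of V, in its centre, measured 880 bp, and the widest on the other chromosomes 2669 bp. After 22 overlaps were resolved by merging, 947 regions covered 1.44% of V, against 2.05% of the other chromosomes.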

How the data were processed

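ChIP-seq for NHR-23::GFP in L3 larvae was analysed from 3 deposited peak lists: ChIP replicate 1, ChIP replicate 2 and both combined. Per the file headers and source fields, SPP called the peaks, IDR (irreproducible discovery rate) then compared their ranks between replicates, and positions are on WormBase WS220; their versions and settings, and the read depth, were not given in the sources used here. The score deposited by the authors is constant in the combined list and has a ceiling in each replicate list, so peaks were ordered by the deposited peak number and the score entered no test.

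Exact repeats of a region and the mitochondrial genome were dropped. Each chromosome's span ended at the last base that any list covers. A peak was found in another list if it shared at least 1 bp. Density ratios have exact conditional 95% intervals and exact two-sided binomial p-values; shares have Clopper-Pearson 95% intervals and two-sided Fisher exact tests; p-values were adjusted by Benjamini-Hochberg over 7 tests. Medians have binomial order-statistic intervals. Peaks lie in clusters, so intervals cover counting error only and p-values may be too small. Functions were checked on simulated lists.

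Named sites were the 10 strongest of the chromosome, the 3 strongest of each part, the 5 densest 20 kb windows (ties by position), the 5 longest gaps and, within the strongest 25%, the 3 with the widest difference in replicate number each way; others were picked after their values were seen. The chromosome, its parts and all measures were chosen with earlier results of these data known. No WS220 genome was used here, so peaks were assigned no gene or sequence; the RefSeq gene table of WBcel235 served to count genes per chromosome. Tools were numpy 2.4.6, scipy 1.17.1, pandas 2.3.3 and matplotlib 3.10.9 under Python 3.11.15.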

Additional observations from a re-analysis of the deposited data

How the results depend on the processing

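Across 16 results, 64 alternatives were tried and 52 kept the direction and the call, or moved the value little. The lower density of V (8 alternatives), its central excess (7) and its poorer right arm (7) were among them throughout. Their size did change. With peaks within 5 kb taken as 1 site, the ratio of centre to arms on V was 1.49 (1.24 to 1.78), against 1.92 as reported. That of right to left arm was then 0.717 (0.564 to 0.908), against 0.630. In the same setting, the odds ratio for the central excess on V against that on the other autosomes was 1.17 (Fisher exact adjusted p = 0.198). The difference between centre and arms in the share of strong peaks was 4.01 percentage points as reported. It was 8.55 with a central part spanning 50% of V (Fisher exact adjusted p = 0.00599) and 7.28 for the stronger 50% of the list (Fisher exact adjusted p = 0.0344), but 1.77 without replicate 1 and 1.36 without replicate 2, over a range of 0.964 to 8.55. That between V and the other chromosomes was -2.10 points as reported, -3.15 without replicate 1 (Fisher exact adjusted p = 0.0485) and -2.67 without replicate 2. The share of V peaks found in both replicates minus that elsewhere was 0.469 points as reported, -0.922 when the overlap had to be reciprocal at 50% and -0.835 when centres had to lie within 100 bp, and passed in none. The share with a near neighbour was 18.8% after merging, which removes overlapping peaks by construction, 9.11% in the stronger 50%, 44.9% within 2 kb and 6.09% within 500 bp. Gaps of at least 200 kb numbered 10, and the fullest 50 kb window held 23 peaks. The gap result in the stronger 50% of the list was counted among the 52, but its values moved. Gaps of at least 100 kb on V then numbered 54 and covered 52.2% of its span, against 38 and 33.1% as reported. The longest was 891927 bp, against 756133 bp. Dropping peaks lengthens gaps by construction. Without replicate 2 the longest gap was 890936 bp. The fullest 20 kb window held 14 peaks without replicate 1, when it lay in the centre, and 15 without replicate 2, when it lay in the left arm. For the other changes the cause was not tested. Site joining, autosomes alone and the count per gene were added after the data were seen. No paired analysis was possible because every comparison lies within a peak list, and the Input samples were not analysed here. With depth unknown, a peak's absence cannot be read as absence of binding.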
